A study of Gallus gallus with 45 samples.

Results

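A set of 100 genes had their highest mean expression in the chicken jejunum at day 4 after hatch, in both broiler lines X and Y, among 3 sampled ages of 0, 4 and 16 days. These genes were chosen from the normalised log2 intensities in the following way. Of 4999 RefSeq transcripts on the array with an accession of a curated messenger RNA (prefix NM_), 3648 had a mean log2 intensity of 8 or more in at least 1 of the 6 groups of line and day, and 3642 remained after 6 hemoglobin genes were left out. Each gene was scored by the smallest of 4 differences of group means, namely day 4 minus day 0 and day 4 minus day 16 in each line, with its best probe, and the 100 highest scores were taken. A score above 0, a mean that was highest at day 4 in both lines, was found for 826 of the 3642 genes (22.7%). The differences between day 4 and the other days therefore chose the genes, and they are given below as a description without a test. How far they differed between the lines was also fitted, and the p-values of those fits are given as a description too.

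Lines X and Y are divergent broiler lines, and line names are given as in the labels. Each of the 45 one-colour arrays held RNA from whole jejunum tissue of 1 pool of 10 birds. Each line had 7 pools at day 0 and 8 at day 16, while at day 4 there were 8 for line X and 7 for line Y. The 7 day 0 pools of line Y carried an age of 0 days in one label and day 4 in another, and were analysed as day 0, as listed by the study. They entered the choice of the 100 genes and the spread in every test, whereas the log2 differences between the lines at day 4 and at day 16, from day 0 to day 16 in line X and in the fall after day 4 were computed without them. Every group had a separate slide, and a difference between groups and one between slides cannot be told apart. The median raw intensity per array was 197 to 262 on the slide of line Y at day 0 (median 256) and 140 to 173.5 on that of line X at day 0 (median 150). Arrays of one group correlated at 0.973 to 0.994. As the tissue was whole jejunum, fewer cells of a type and less RNA per cell cannot be told apart.

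In the days after hatch the chicken gut changes from the use of yolk lipid to solid feed. The villi lengthen and are renewed from dividing cells at their base, the muscle coat and connective tissue grow, and immune cells settle in the mucosa. Enterocytes take up sugars through transporters of the brush border and pass them to the blood through facilitative carriers such as SLC2A2, and absorb calcium with the help of calbindin, a protein induced by vitamin D. Cell division requires the copying of DNA by the replication machinery and the separation of chromosomes by the mitotic kinases, kinesins and kinetochore proteins. As a check of the tissue, 15 enterocyte markers were kept, and the log2 of their mean intensity had group medians of 15.03 to 15.24. Of the lists for neighbouring organs, 5 hepatocyte markers were kept, with group medians of 8.69 to 10.59, and 1 pancreatic acinar marker, with 7.23 to 8.29. Lists hold different probes, so their levels are not set against each other.

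The score of the 100 genes ranged from 0.33 to 1.47 with a median of 0.42, which correspond to a 1.25-fold, a 2.77-fold and a 1.34-fold higher mean at day 4 in the comparison that was smallest for the gene. A score of at least 1 was reached by 5 genes and a score of at least 0.5 by 29. The median of the day 4 minus day 0 difference was 0.89 in line X and 0.63 in line Y, and that of the day 4 minus day 16 difference was 0.60 in line X and 0.56 in line Y. The rise was larger in line X than in line Y for 77 of the 100 genes. That count uses the values of the rule and day 0 slides of different brightness. It has no share over all genes beside it, and nothing is read from it. The smallest of the 4 differences was a fall after day 4 for most genes, in line Y for 33 genes and in line X for 30, while it was the rise in line Y for 25 and the rise in line X for 12. The median SD among pools of a group was 0.23, so that many of the smaller differences were near the spread of single pools.

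**Figure D1:**
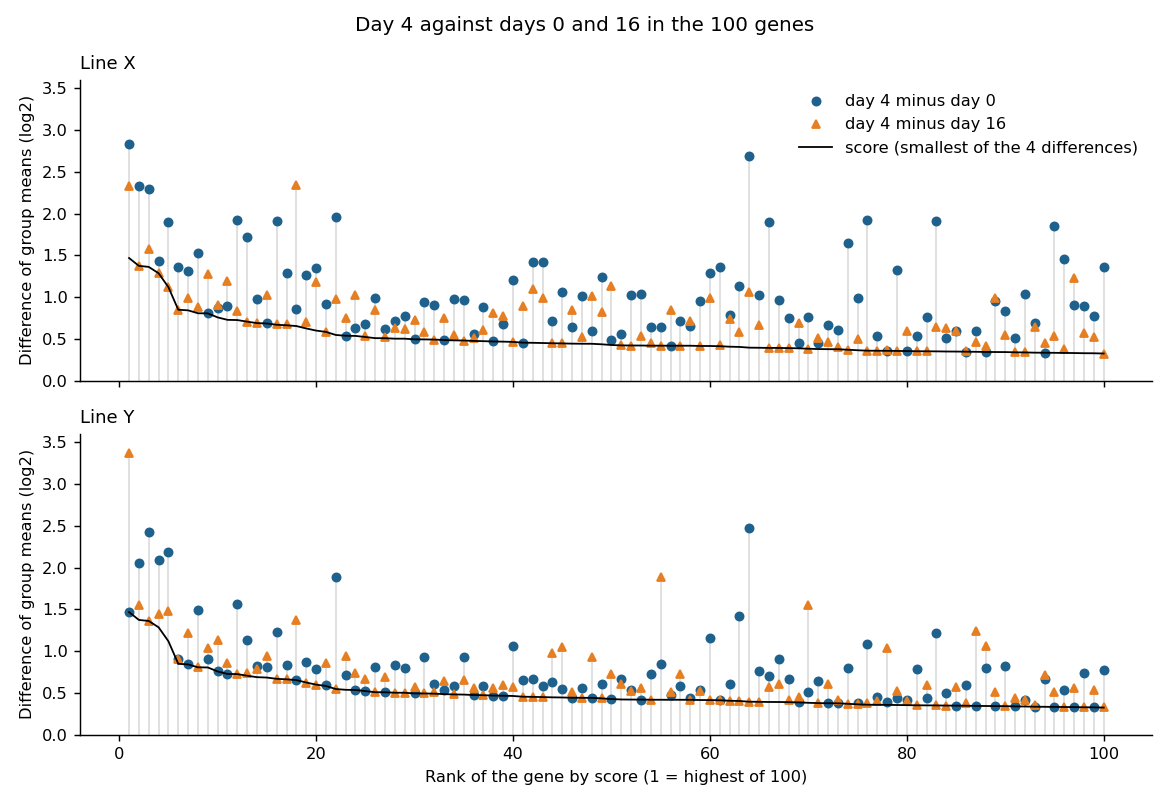
Difference of group means (log2) between day 4 and day 0 (circles) and between day 4 and day 16 (triangles) for each of the 100 genes, ordered by score, in line X (top) and line Y (bottom); the black line is the score. The score falls from 1.47 to 0.33, with 5 genes at 1 or more, whereas single differences reach 2.83 in line X and 3.37 in line Y, both of SLC2A2, whose probe was not well above background in all pools of the lower groups.

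Every day 4 pool lay above every day 0 pool for 67 of the genes in line X (23% of the 3642 ranked genes) and for 54 in line Y (16.7%). Every day 4 pool lay above every day 16 pool for 35 genes in line X (8.87%) and 39 in line Y (7.58%). These comparisons are those of the rule, so nothing is read from them. In 11 genes the day 4 pools of each line lay above all its other pools (0.384% of the ranked genes), namely CALB1, DCN, WISP1, RFC2, NM_204645, CDK2AP1, NDC80, CCNB1, CDK1, SDC2 and LPIN2, which were picked out after their values were seen. In another 11 genes none of the 4 comparisons was free of overlap between pools. At the threshold of the rule, LPIN2, YBX3 and KNSTRN had scores of 0.329, 0.328 and 0.325 and were inside, and CAPZA2, GNB1 and MAPRE1 had scores of 0.325, 0.325 and 0.321 and were outside.

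Of the 100 genes, 92 had a gene symbol and 8 are named by accession. By their known function, 22 act in cell division and DNA synthesis, 22 in muscle, cytoskeleton and matrix, 13 in absorption, ion transport and metabolism, 4 in immune defence and 5 in protein synthesis, folding and turnover, whereas 34 were put in none of these groups. The median rise in line X was 0.69 for cell division, 0.96 for muscle and matrix, 1.29 for absorption and metabolism, 1.74 for immune defence and 0.71 for protein synthesis. In line Y the corresponding medians were 0.66, 0.62, 0.71, 1.69 and 0.42. The fall after day 4 was more even between groups in line X, with medians of 0.53, 0.69, 0.57, 1.02 and 0.50 in the same order, and in line Y with 0.51, 0.58, 0.56, 0.57 and 0.41.

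The highest score was that of SLC2A2, the glucose transporter GLUT2. In line X its log2 intensity was 4.18 to 7.44 (median 5.32) at day 0, 6.82 to 9.32 (median 8.43) at day 4 and 3.52 to 8.65 (median 5.74) at day 16. In line Y it was 4.35 to 7.63 (median 5.47) at day 0, 6.08 to 8.66 (median 7.02) at day 4 and 2.74 to 5.22 (median 3.71) at day 16. The day 16 pools of line X fell apart into 4 between 3.52 and 3.82 and 4 between 7.66 and 8.65, so that the upper 4 reached into the range of day 4, whereas all 8 line Y pools lay below the day 4 pools of that line. Pools of days 0 and 4 overlapped in both lines. The line Y mean of SLC2A2 at day 4, 7.11, was the lowest day 4 group mean of the set. Only in line X at day 4 did its mean reach the level of 8. The probe was well above background in all pools of both lines at day 4 and of line Y at day 0, but in line X it was so in only 4 of 7 day 0 pools and 4 of 8 day 16 pools, and in line Y in 1 of 8 day 16 pools. SLC2A2 did not pass the limit for dim probes and was not tested.

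CALB1, calbindin, was among the brightest genes of the set. In line X it was 12.46 to 13.94 (median 13.25) at day 0, 15.40 to 15.99 (median 15.53) at day 4 and 13.56 to 14.83 (median 14.23) at day 16. In line Y it was 13.15 to 14.05 (median 13.69) at day 0, 15.18 to 16.00 (median 15.77) at day 4 and 13.79 to 14.40 (median 14.23) at day 16. At 16.00 the highest day 4 pool was near the top of the 16-bit scanner range, so the size of the CALB1 peak may be understated. Up to 1.05% of spots per array were saturated, and whether this probe was among them was not examined. Day 4 pools of CALB1 in both lines lay above all its other pools, and the pools of days 0 and 16 overlapped. The day 16 level was above that of day 0 by 0.96 ± 0.17 (log2 difference ± SE, limma adjusted p = 2.44e-06) in line X and by 0.51 ± 0.17 (log2 difference ± SE, limma adjusted p = 0.00817) in line Y. ATP2B1, the plasma membrane pump that moves calcium out of the cell, was 8.81 to 9.39 (median 9.26) at day 0, 9.93 to 10.22 (median 10.09) at day 4 and 9.14 to 9.70 (median 9.54) at day 16 in line X. In line Y ATP2B1 was 9.02 to 9.76 (median 9.18) at day 0, 9.58 to 10.14 (median 9.90) at day 4 and 8.56 to 9.12 (median 9.04) at day 16. Its mean at day 4 was higher by 0.92 over day 0 and 0.58 over day 16 in line X, and by 0.59 and 0.86 in line Y. Day 4 pools of line X lay above both other days for ATP2B1, while in line Y they lay above day 16 and overlapped day 0. Of 6 genes of vitamin D and calcium absorption that were kept, these were the 2 with a mean that was highest at day 4 in both lines.

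Other genes of absorption and metabolism were less sharply peaked. PGK2, the phosphoglycerate kinase of glycolysis that RefSeq also lists as PGK1, was 7.80 to 9.57 (median 8.87) at day 0, 10.07 to 11.12 (median 10.82) at day 4 and 9.98 to 10.75 (median 10.28) at day 16 in line X. In line Y it was 9.90 to 10.26 (median 9.99) at day 0, 10.23 to 11.17 (median 10.80) at day 4 and 9.60 to 10.51 (median 10.25) at day 16. The day 0 pools of line X were low and separate from all other pools, and the ranges of days 4 and 16 overlapped in both lines. GPI, the glycolytic glucose-6-phosphate isomerase, also had its lowest mean at day 0 in line X, with day 4 higher by 1.32 over day 0 and 0.36 over day 16 in line X, and by 0.43 and 0.52 in line Y. BDH1A, a dehydrogenase of ketone bodies, had day 4 higher by 1.36 over day 0 and 0.43 over day 16 in line X, and by 0.42 and 0.41 in line Y. FADS2, a desaturase of polyunsaturated fatty acid synthesis that was not kept by the limit for dim probes and was not tested, was higher at day 4 by 1.29 over day 0 and 0.99 over day 16 in line X, and by 1.15 and 0.42 in line Y. APOB, the structural protein of lipoproteins, was 8.72 to 10.73 (median 10.13) at day 0, 10.26 to 11.18 (median 10.88) at day 4 and 9.12 to 11.27 (median 10.53) at day 16 in line X, against 9.77 to 10.89 (median 10.05) at day 0, 10.01 to 11.31 (median 10.78) at day 4 and 8.42 to 9.56 (median 9.11) at day 16 in line Y. In line X the APOB pools of the 3 days overlapped, and in line Y those of day 16 lay below all others.

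FGF19, a hormone that in humans is released by the gut in response to bile acids, was 6.49 to 8.22 (median 7.29) at day 0, 8.82 to 9.50 (median 9.27) at day 4 and 7.72 to 9.64 (median 8.68) at day 16 in line X. In line Y it was 7.78 to 10.12 (median 9.22) at day 0, 9.14 to 10.46 (median 9.29) at day 4 and 8.48 to 9.25 (median 9.05) at day 16. Line X pools at day 0 lay below all its day 4 pools, whereas in line Y the 3 days overlapped. SGK1, a kinase that raises sodium and nutrient transport, was 10.96 to 13.44 (median 12.64) at day 0, 12.43 to 14.35 (median 13.30) at day 4 and 10.76 to 13.04 (median 12.31) at day 16 in line X, against 9.75 to 11.95 (median 11.12) at day 0, 11.45 to 12.81 (median 11.54) at day 4 and 8.66 to 11.99 (median 11.37) at day 16 in line Y. The days overlapped in both lines, and the median of line Y lay below that of line X on each day.

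Genes of cell division and DNA synthesis had a smaller median rise than the immune genes, and 4 of 22 had day 4 pools above all others in both lines. CDK1, the kinase that starts mitosis, was 12.15 to 12.42 (median 12.28) at day 0, 12.93 to 13.19 (median 13.01) at day 4 and 12.27 to 12.75 (median 12.38) at day 16 in line X. In line Y it was 11.91 to 12.73 (median 12.26) at day 0, 12.94 to 13.32 (median 13.02) at day 4 and 12.15 to 12.87 (median 12.55) at day 16. Day 4 pools lay above all pools of the other days in both lines. CCNB1, the cyclin that activates CDK1, was higher at day 4 by 0.61 over day 0 and 0.52 over day 16 in line X, and by 0.51 and 0.69 in line Y. NDC80, a kinetochore protein that binds the spindle, was higher by 0.99 over day 0 and 0.85 over day 16 in line X, and by 0.81 and 0.51 in line Y. For both genes the day 4 pools of each line were again free of overlap with the other days. RFC2, a subunit of the clamp loader of DNA replication, was 10.06 to 10.44 (median 10.30) at day 0, 10.88 to 11.44 (median 11.13) at day 4 and 9.84 to 10.07 (median 9.98) at day 16 in line X, against 10.11 to 10.57 (median 10.26) at day 0, 10.86 to 11.25 (median 10.99) at day 4 and 10.04 to 10.28 (median 10.14) at day 16 in line Y. Its day 4 pools too lay above all others, while its pools of days 0 and 16 overlapped in both lines. PCNA, the sliding clamp that RFC loads, had a larger rise than fall, with day 4 higher by 1.65 over day 0 and 0.37 over day 16 in line X, and by 0.80 and 0.37 in line Y. Members of the mitosis and replication lists in the set also included PLK1, BIRC5, KIF20A, KIF4B and SMC2, and RFC3 and DUT, with scores of 0.33 to 0.44. KPNA2, an importin that carries proteins into the nucleus, had the sixth highest score, and its day 4 mean was higher by 1.36 over day 0 and 0.85 over day 16 in line X, and by 0.91 and 0.90 in line Y.

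The wider lists of these pathways, which include genes of the set, were also counted. A list gene was represented by its brightest kept probe, and a mean that was highest at day 4 in both lines was found in 22 of 30 mitosis genes (73.3%) and in 12 of 27 genes of DNA replication (44.4%), against 574 of 3690 genes with a symbol (15.6%). These are again the differences used by the rule, and 8 of the mitosis genes and 5 of the replication genes were in the set. The lists are therefore no separate support for the peak, and nothing is read from these counts. The median rise of the mitosis genes was 0.37 in line X and 0.32 in line Y and their median fall 0.51 and 0.30, while the replication genes had a rise of 0.55 and 0.44 and a fall of 0.24 and 0.16. Between days 0 and 16, 12 of 27 replication genes were higher at day 16 in line X and none lower, and 9 were higher and 1 lower in line Y. Of the 30 mitosis genes, 2 were higher and 6 lower at day 16 in line X, and 5 were higher and none lower in line Y. Over all kept probes, 28.1% were higher and 33% lower in line X, and 18.4% and 26.8% in line Y.

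Genes of muscle, cytoskeleton and matrix were led by ACTC1, an actin of the contractile apparatus that is close in sequence to the other actins. In line X it was 6.56 to 7.46 (median 6.85) at day 0, 8.48 to 9.72 (median 9.23) at day 4 and 6.98 to 8.50 (median 7.61) at day 16. In line Y it was 6.34 to 7.18 (median 6.54) at day 0, 8.45 to 9.52 (median 9.06) at day 4 and 7.22 to 8.47 (median 7.59) at day 16. Line Y day 4 pools overlapped those of day 16 at 1 end of the range, with 8.45 below 8.47, and line X pools did so with 8.48 below 8.50. The fourth highest score, 1.29, was that of NM_205522, which has no symbol in the gene table and was put in none of the functional groups. NM_205522 was higher at day 4 by 1.43 over day 0 and 1.29 over day 16 in line X, and by 2.09 and 1.45 in line Y. DCN, decorin, a proteoglycan that binds collagen, was 9.60 to 9.98 (median 9.82) at day 0, 10.79 to 11.53 (median 11.06) at day 4 and 9.88 to 10.40 (median 10.09) at day 16 in line X, against 10.001 to 10.48 (median 10.25) at day 0, 10.80 to 11.42 (median 11.15) at day 4 and 9.66 to 10.22 (median 9.89) at day 16 in line Y. Day 4 was free of overlap with both other days in both lines. SYNM, an intermediate filament protein of muscle, was higher by 0.98 over day 0 and 0.69 over day 16 in line X, and by 0.82 and 0.79 in line Y. SERPINF1, a secreted serpin found in matrix, was higher by 1.72 over day 0 and 0.71 over day 16 in line X, and by 1.13 and 0.74 in line Y. ANXA1, a membrane-binding annexin, was higher by 1.92 over day 0 and 0.84 over day 16 in line X, and by 1.57 and 0.73 in line Y. WISP1, a matricellular protein of the CCN family, was 8.44 to 8.82 (median 8.72) at day 0, 9.14 to 9.90 (median 9.51) at day 4 and 8.08 to 8.60 (median 8.12) at day 16 in line X, against 8.88 to 9.28 (median 9.11) at day 0, 9.54 to 10.35 (median 10.11) at day 4 and 8.55 to 9.16 (median 8.996) at day 16 in line Y. For WISP1 day 4 was highest without overlap in both lines.

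Markers of the cell types that could carry these genes did not all follow the same course. Of 10 smooth muscle markers, 7 (70%) had the highest mean at day 4 in both lines, against 15.6% of all genes with a symbol. SYNM, 1 of these markers, was in the set, and the count uses the differences of the rule, so nothing is read from it. The log2 of the mean intensity of the 10 markers had medians of 14.55, 14.74 and 13.93 at days 0, 4 and 16 in line X. In line Y the medians were 14.66, 14.70 and 14.23. By pool, these line X values were 14.32 to 14.66 (day 0), 14.28 to 14.89 (day 4) and 13.61 to 14.28 (day 16). In line Y they ranged from 14.51 to 14.80, 14.42 to 14.82 and 14.11 to 14.58. Of 12 fibroblast and matrix markers, 2 (16.7%) had the highest mean at day 4 in both lines, near the 15.6% of all genes with a symbol. The median of the same measure went from 14.40 at day 0 to 14.21 and 13.39 in line X and from 14.49 to 14.27 and 13.79 in line Y. The part of these cell types in the peak was not tested. COL6A2 and SPARC, which are both in the set and in this list, peaked on the probe chosen by the rule, but the brightest probe of COL6A2 had a score of -0.10 and that of SPARC a score of -0.14.

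H1F0 had the fifth highest score. RefSeq also lists it as H5, and histone H5 is the linker histone of the nucleated red blood cells of birds. In line X its log2 intensity was 8.27 to 8.85 (median 8.68) at day 0, 9.65 to 11.20 (median 10.74) at day 4 and 8.45 to 10.49 (median 9.36) at day 16. In line Y it was 8.62 to 9.41 (median 8.86) at day 0, 10.702 to 11.51 (median 11.04) at day 4 and 8.70 to 10.22 (median 9.66) at day 16. Day 4 pools lay above all day 0 pools in both lines, and above all day 16 pools in line Y, whereas days 4 and 16 overlapped in line X. The 6 hemoglobin genes that were left out all had scores that would have placed them in the set, from 1.21 for HBBA to 3.93 for HBE1. In line X the mean of HBA1 went from 9.97 on day 0 to 14.82 on day 4 and 12.52 on day 16, and in line Y through 10.68, 15.12 and 12.81. Of 9 other red cell markers that were kept, 1 had the highest mean at day 4 in both lines, and the median of the log2 of their mean intensity was 11.72, 11.50 and 11.21 in line X and 11.43, 11.19 and 10.81 in line Y. The part of blood in the level of H1F0 was not tested.

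The 4 immune genes of the set had the largest median rise of the 5 groups in both lines. IFIH1, the sensor of viral double-stranded RNA known as MDA5, was 6.72 to 7.74 (median 7.30) at day 0, 9.47 to 10.43 (median 9.96) at day 4 and 8.30 to 9.56 (median 8.74) at day 16 in line X. In line Y it was 6.69 to 7.14 (median 6.91) at day 0, 8.59 to 10.04 (median 9.43) at day 4 and 8.44 to 9.48 (median 9.02) at day 16. All pools of days 4 and 16 lay above those of day 0 in both lines, and those of days 4 and 16 overlapped. TLR3, an endosomal receptor for double-stranded RNA, was 9.09 to 9.46 (median 9.34) at day 0, 11.06 to 11.61 (median 11.18) at day 4 and 9.89 to 10.75 (median 10.24) at day 16 in line X, against 8.46 to 9.30 (median 8.87) at day 0, 10.13 to 11.31 (median 10.80) at day 4 and 9.97 to 10.36 (median 10.25) at day 16 in line Y. Day 4 was again above day 0 without overlap, and line X separated day 4 from day 16 too. LY86, a secreted partner of the receptor CD180 on B cells and macrophages, was 9.50 to 9.97 (median 9.60) at day 0, 10.703 to 11.57 (median 11.26) at day 4 and 9.61 to 11.07 (median 10.29) at day 16 in line X, against 9.57 to 10.15 (median 9.81) at day 0, 11.10 to 11.69 (median 11.32) at day 4 and 10.11 to 11.04 (median 10.47) at day 16 in line Y. LY86 overlapped between days 4 and 16 in line X and not in line Y. CXCL14, a chemokine, was higher at day 4 by 1.35 over day 0 and 1.18 over day 16 in line X, and by 0.79 and 0.60 in line Y.

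In both lines T cell, B cell and macrophage and heterophil markers had their highest median level at day 16 instead. For macrophages and heterophils, pools of days 4 and 16 overlapped, at 12.69 to 13.67 and 13.57 to 13.65 in line X. In line Y they were at 12.59 to 13.87 and 13.26 to 13.69. In both lines 9 of 9 T cell markers were higher at day 16 than at day 0 (28.1% of all kept probes in line X and 18.4% in line Y). None of 9 T cell markers and none of 11 B cell markers had the highest mean at day 4 in both lines, and 1 of 13 markers of macrophages and heterophils did, namely LY86 itself. The share over all genes with a symbol was 15.6%, and nothing is read from these counts in lists this small. For the T cell markers, the log2 of the mean intensity had medians of 10.19, 11.68 and 13.23 at days 0, 4 and 16 in line X and 10.06, 11.85 and 13.29 in line Y. Of 12 genes of the interferon response, 3 (25%) had the highest mean at day 4 in both lines, against the same 15.6%. At day 16, 11 of them were higher than at day 0 in line X and 11 in line Y, against the same 28.1% and 18.4% of kept probes.

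**Figure D2:**
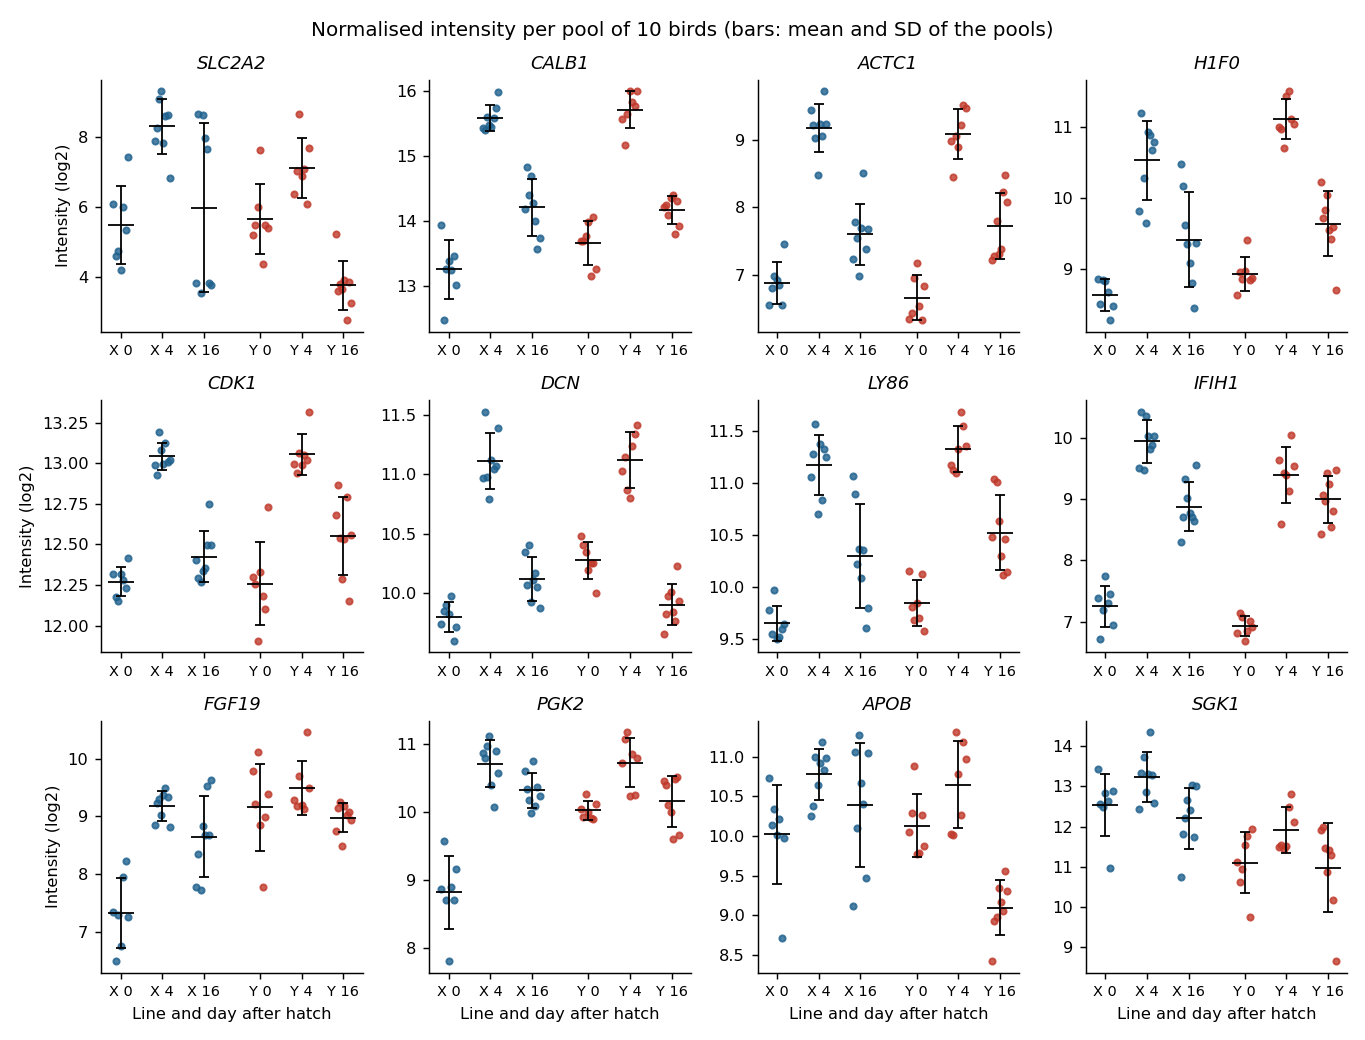
Normalised log2 intensity of 12 genes in each pool of 10 birds (points), by line and day after hatch, with the mean and SD of the 7 or 8 pools of the group; blue is line X and red is line Y. CALB1, CDK1 and DCN separate day 4 from the other days in both lines, SLC2A2 falls into 2 clusters at day 16 in line X, and the day 0 pools of line X lie below all others in PGK2.

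Whether the genes were back at the level of day 0 by day 16 was tested with limma in a fit to all probes. The rule treats days 0 and 16 alike, and a gene passed at a Benjamini-Hochberg adjusted p under 0.05 and a fold change over 1.3. Of the 100 genes, 98 were kept by the limit for dim probes and tested. In line X, 36 genes (36.7%) were higher at day 16 than at day 0 and 6 (6.12%) were lower, against 28.1% and 33% of the 25527 kept probes, and 29.4% and 23.5% of the 3639 ranked genes that were kept. In line Y, 20 genes (20.4%) were higher and 5 (5.1%) lower, against 18.4% and 26.8% of the kept probes and 20.2% and 21% of the kept ranked genes. The rule left out genes that fell or rose steadily from day 0 to day 16. Neither the shares of lower genes nor those of higher genes are therefore read against these backgrounds. In both lines 15 genes were higher at day 16 and 2 were lower, and 48 passed in neither line. These counts over both lines have no share over all genes beside them and are not read either. The median difference over the set was 0.27 in line X and 0.01 in line Y, against -0.05 and -0.07 over all kept probes. Without line Y pool 23 at day 16, 8 genes in place of 5 were lower at day 16 in line Y.

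IFIH1 was the gene with the largest remaining difference in both lines. Its day 16 level exceeded that of day 0 by 1.63 ± 0.18 (log2 difference ± SE, limma adjusted p = 9.34e-11) in line X and by 2.08 ± 0.18 (log2 difference ± SE, limma adjusted p = 1.91e-13) in line Y, which are 3.09-fold and 4.21-fold. Its pools of days 0 and 16 did not overlap in either line. In line X it was followed by GLT8D1, a glycosyltransferase, with day 0 pools at 6.92 to 8.07 (median 7.35) and day 16 pools at 8.55 to 9.33 (median 9.01). That difference was 1.57 ± 0.15 (log2 difference ± SE, limma adjusted p = 1.33e-12), without overlap. PGK2 differed by 1.50 ± 0.18 (log2 difference ± SE, limma adjusted p = 5.17e-10) in line X, also without overlap. In line Y, TLR3 was higher at day 16 by 1.34 ± 0.12 (log2 difference ± SE, limma adjusted p = 8.73e-13) and ACTC1 by 1.06 ± 0.20 (log2 difference ± SE, limma adjusted p = 1.07e-05), and in both genes the pools of the 2 days did not overlap.

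Some genes ended below day 0, and their number is not read because of the rule. NM_001007821 fell in line X from 6.37 to 7.47 (median 7.001) at day 0 to 4.70 to 6.46 (median 5.49) at day 16, with 6.91 to 8.71 (median 8.01) at day 4, the highest of the 3 days. The difference between days 16 and 0 was -1.48 ± 0.23 (log2 difference ± SE, limma adjusted p = 2.55e-07), and 1 end of the ranges overlapped. At day 16, 4 of the 8 line X pools of this dim probe lay below the highest dark corner spot of their array, and with a normexp offset of 50 the difference was -0.89, so its size depends on the background correction. SMC2, a subunit of the condensin complex that compacts chromosomes, differed in line X by -0.65 ± 0.14 (log2 difference ± SE, limma adjusted p = 9.24e-05). WISP1 differed in line X by -0.47 ± 0.11 (log2 difference ± SE, limma adjusted p = 0.000223), and on processed signals scaled to the 75th percentile the WISP1 difference was -0.33, short of the required fold. In line Y the pools of ANO5, a protein of the anoctamin family, were 7.18 to 7.73 (median 7.35) at day 0, 7.40 to 8.90 (median 8.24) at day 4 and 5.76 to 6.76 (median 6.31) at day 16. Day 16 pools of ANO5 lay below all others in line Y, with a difference from day 0 of -1.05 ± 0.26 (log2 difference ± SE, limma adjusted p = 0.000528). APOB was lower at day 16 in line Y by -1.03 ± 0.26 (log2 difference ± SE, limma adjusted p = 0.000814) and SPP1, the secreted phosphoprotein osteopontin, by -0.89 ± 0.31 (log2 difference ± SE, limma adjusted p = 0.0125), without overlap between the 2 days in either gene.

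The level of these genes was compared between the lines on each day. The study reared the lines in separate pens, so effects of line, pen and slide cannot be told apart. At day 0, 30 of the 98 genes (30.6%) were higher in line Y and 7 (7.14%) were lower, against 19% and 19.1% of the kept probes and 17.3% and 14.2% of the kept ranked genes. On processed signals scaled to the 75th percentile these counts were 33 and 3. At day 4, 8 genes (8.16%) were higher and 9 (9.18%) lower, against 12.1% and 11.3% of the kept probes and 7.94% and 9.78% of the kept ranked genes. At day 16, 14 genes (14.3%) were higher and 10 (10.2%) lower, against 18.2% and 15.5% of the kept probes and 13.9% and 14.4% of the kept ranked genes. The group means compared here also enter the score, and the genes had to peak in both lines, so nothing is read from these shares. The slide of line Y at day 0 was the brightest. The lines were called different on no day for 43 genes, on 1 day for 39, on 2 days for 9 and on all 3 days for 7. No share over all genes was computed for these patterns, and nothing is read from them. Without line X pool 12 at day 4, 5 in place of 8 genes were higher in line Y at day 4.

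**Figure D3:**
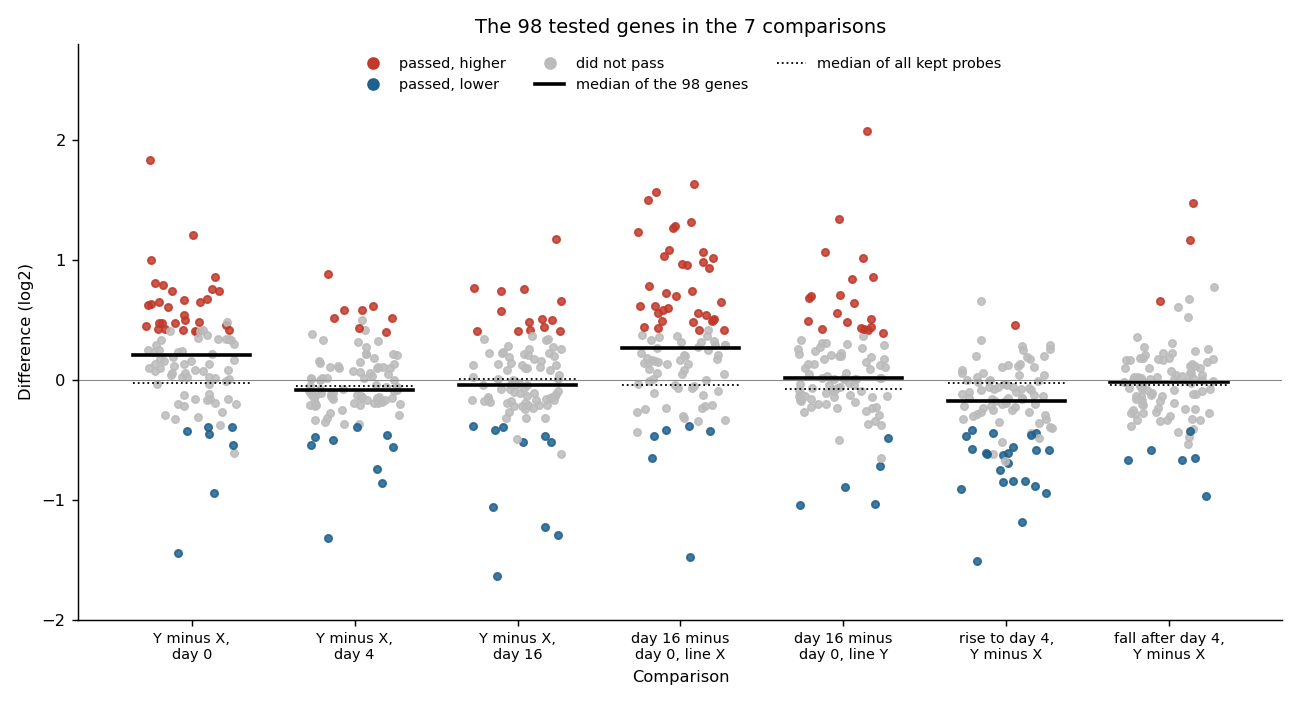
Log2 difference of each of the 98 tested genes (points) in the 7 comparisons; red and blue points passed the test, grey points did not, the solid bar is the median of the 98 genes and the dotted bar the median of all 25527 kept probes. At day 0 the median of the set is 0.20 higher in line Y, and the rise to day 4 is smaller in line Y by a median of 0.18.

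The genes higher in line Y at day 0 were led by FGF19, with 6.49 to 8.22 (median 7.29) in line X, against 7.78 to 10.12 (median 9.22) in line Y. The difference was 1.83 ± 0.28 (log2 difference ± SE, limma adjusted p = 5.05e-07), which is 3.56-fold, and the ranges overlapped at 1 end. PGK2 differed by 1.20 ± 0.18 (log2 difference ± SE, limma adjusted p = 6e-07), with no overlap of the pools. NM_001031063 was 9.50 to 10.695 (median 10.23) in line X, against 10.84 to 11.57 (median 11.19) in line Y, and differed by 1.00 ± 0.20 (log2 difference ± SE, limma adjusted p = 3.85e-05) with no overlap. It was higher in line Y also at day 4, by 0.88 ± 0.19 (log2 difference ± SE, limma adjusted p = 0.000238). Genes that were higher in line Y on all 3 days were WISP1, NM_001031063, OC3 and CENPP, which were named after their values were seen. CENPP, a protein of the centromere, was 9.45 to 10.28 (median 9.91) in line X, against 10.23 to 10.69 (median 10.52) in line Y at day 4 and differed by 0.62 ± 0.10 (log2 difference ± SE, limma adjusted p = 1.98e-06). RFC3, a clamp loader subunit like RFC2, was 7.58 to 8.12 (median 7.98) in line X, against 8.13 to 8.68 (median 8.56) in line Y at day 4, and its difference of 0.58 ± 0.10 (log2 difference ± SE, limma adjusted p = 6.64e-06) was free of overlap.

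SGK1, TIMP2 and PID1 were the 3 genes lower in line Y on all 3 days, named here after their values were seen. SGK1 was lower by -1.45 ± 0.40 (log2 difference ± SE, limma adjusted p = 0.00257) at day 0, by -1.32 ± 0.39 (log2 difference ± SE, limma adjusted p = 0.00678) at day 4 and by -1.23 ± 0.38 (log2 difference ± SE, limma adjusted p = 0.0062) at day 16. The SGK1 pools of the 2 lines overlapped on each day. KIFC1, a kinesin that bundles spindle microtubules, was 8.43 to 9.46 (median 9.16) in line X, against 7.29 to 8.63 (median 8.06) in line Y at day 0. It was lower in line Y by -0.95 ± 0.23 (log2 difference ± SE, limma adjusted p = 0.000696) at day 0 and by -0.75 ± 0.23 (log2 difference ± SE, limma adjusted p = 0.00752) at day 4. TIMP2, an inhibitor of matrix metalloproteinases, was 9.29 to 10.003 (median 9.60) in line X, against 8.64 to 9.54 (median 9.02) in line Y at day 0, a difference of -0.55 ± 0.17 (log2 difference ± SE, limma adjusted p = 0.00578). With processed signals scaled to the 75th percentile the TIMP2 difference at day 0 was -0.32 with a limma adjusted p of 0.0774, and over the settings its adjusted p ranged from 5.82e-05 to that value.

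SPP1 was 9.38 to 9.78 (median 9.53) in line X, against 7.87 to 10.47 (median 8.38) in line Y at day 4, and 8.82 to 9.36 (median 9.08) and 6.85 to 7.80 (median 7.49) at day 16. At day 4, 6 of the 7 line Y pools lay below all line X pools and the seventh above them, with a difference of -0.86 ± 0.31 (log2 difference ± SE, limma adjusted p = 0.0261). At day 16 the SPP1 pools did not overlap and differed by -1.64 ± 0.30 (log2 difference ± SE, limma adjusted p = 1.7e-05). The day 4 difference of SPP1 was lost without line Y pool 9, 13 or 15, at -0.73, -0.76 and -0.76, and with 2 other settings, with a limma adjusted p of 0.0163 to 0.145 over the settings. At day 16, APOB was also lower in line Y, by -1.30 ± 0.25 (log2 difference ± SE, limma adjusted p = 4.62e-05), and its pools overlapped between 9.12 and 9.56. Among the genes higher in line Y at day 16, NM_001007821 differed by 1.17 ± 0.22 (log2 difference ± SE, limma adjusted p = 2.7e-05), and by 0.67 with an offset of 50, with the same dim line X pools. CXCL14 was 7.89 to 8.48 (median 8.08) in line X, against 8.61 to 9.24 (median 8.93) in line Y at day 16, and differed by 0.76 ± 0.10 (log2 difference ± SE, limma adjusted p = 6.54e-08) without overlap. WISP1 differed at day 16 by 0.75 ± 0.11 (log2 difference ± SE, limma adjusted p = 1.98e-07), with 1 line X pool at 8.60 above the lowest line Y pool at 8.55.

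The size of the peak itself was compared between the lines by contrasts of contrasts. These are differences between the quantities that scored the genes. Although the rule treats the lines alike, the genes had to peak in both, so nothing is read from the shares of all probes beside the counts. The adjusted p-values of single genes in the rise and the fall carry the same limit. They come from the values that chose the genes and are given as a description. The rise from day 0 to day 4 was larger in line X for 23 of the 98 genes (23.5%) and larger in line Y for 1 (1.02%), against 13.1% and 8.63% of the kept probes and 13.5% and 5.69% of the kept ranked genes. The fall from day 4 to day 16 was larger in line X for 6 genes (6.12%) and larger in line Y for 3 (3.06%), against 20.1% and 14.8% of the kept probes and 15% and 9.56% of the kept ranked genes. Neither was called different for 69 genes and both were for 4, counts for which no share over all genes was computed. Of the 23 genes with a larger rise in line X, 7 belonged to muscle, cytoskeleton and matrix, 4 to absorption and metabolism, 3 to cell division, 1 to immune defence and 1 to protein synthesis. The fall was larger in line X for 3 of the 4 immune genes, CXCL14, IFIH1 and TLR3, picked after their values were seen. It was so for 1 gene of cell division, 1 of muscle, cytoskeleton and matrix and 0 of absorption and metabolism and of protein synthesis. The IFIH1 call was lost under some settings, and those of CXCL14 and TLR3 were not followed over the settings. Since line X and line Y at day 0 lay on slides of different brightness, the line difference in the rise and that between the slides cannot be told apart.

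FGF19 had the most unequal rise, 1.85 in line X and 0.33 in line Y, a difference of -1.51 ± 0.39 (log2 difference ± SE, limma adjusted p = 0.00399). The rise of PGK2 was 1.89 and 0.71, a difference of -1.19 ± 0.26 (log2 difference ± SE, limma adjusted p = 0.00095). That of BDH1A was 1.36 and 0.42, a difference of -0.94 ± 0.17 (log2 difference ± SE, limma adjusted p = 0.000178). In the 3 genes line Y was higher at day 0, and at day 4 the lines were not called different. GPX7, a glutathione peroxidase of the endoplasmic reticulum, was the 1 gene with a larger rise in line Y. It was 7.49 to 8.18 (median 7.73) at day 0, 7.64 to 8.53 (median 8.17) at day 4 and 7.48 to 7.92 (median 7.75) at day 16 in line X, against 7.61 to 8.21 (median 7.88) at day 0, 8.28 to 9.04 (median 8.59) at day 4 and 7.35 to 7.84 (median 7.57) at day 16 in line Y. Its rises of 0.34 and 0.80 differed by 0.46 ± 0.17 (log2 difference ± SE, limma adjusted p = 0.0432), close to the threshold. GPX7 did not pass with 3 other settings nor without any 1 of 14 pools, which were pools 5, 6 and 7 at day 0 and 9, 13, 14 and 15 at day 4 of line X, and pools 4, 6, 7 and 8 at day 0 and 9, 10 and 15 at day 4 of line Y. Its difference was 0.39 to 0.46 without these pools. Without line X pool 3 at day 0, 2 genes in place of 1 had a larger rise in line Y. The adjusted p of limma ranged from 0.0172 to 0.23 over the other settings.

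The fall after day 4 was most unequal in ANO5, 0.42 in line X and 1.89 in line Y, a difference of 1.47 ± 0.36 (log2 difference ± SE, limma adjusted p = 0.000995). The fall of APOB was 0.38 and 1.55, a difference of 1.17 ± 0.37 (log2 difference ± SE, limma adjusted p = 0.00964). That of GPX7 was 0.41 and 1.07, a difference of 0.66 ± 0.16 (log2 difference ± SE, limma adjusted p = 0.0013). ANO5 and APOB were lower in line Y at day 16, and GPX7 was higher in line Y at day 4. The fall of NM_001007821 was larger in line X, 2.34 against 1.37, with a difference of -0.97 ± 0.32 (log2 difference ± SE, limma adjusted p = 0.0138). With an offset of 50 this difference was -0.51 and did not pass (limma adjusted p = 0.0769, over the settings 0.00462 to 0.0769). PLK1, the kinase that drives entry into mitosis and spindle assembly, had a fall of 1.23 in line X and 0.56 in line Y, a difference of -0.67 ± 0.21 (log2 difference ± SE, limma adjusted p = 0.00871). IFIH1 had a fall of 1.06 and 0.40, a difference of -0.67 ± 0.25 (log2 difference ± SE, limma adjusted p = 0.0309). IFIH1 did not pass when only the groups of the contrast were fitted (limma adjusted p = 0.0535, over the settings 0.0181 to 0.0535). It was also lost without any 1 of 7 pools, namely pools 10 and 12 of line X at day 4, pool 17 of line X at day 16, pools 10 and 13 of line Y at day 4 and pools 20 and 24 of line Y at day 16, with differences of -0.53 to -0.62. Without line X pool 10 at day 4, 3 genes in place of 6 had a larger fall in line X.

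**Figure D4:**
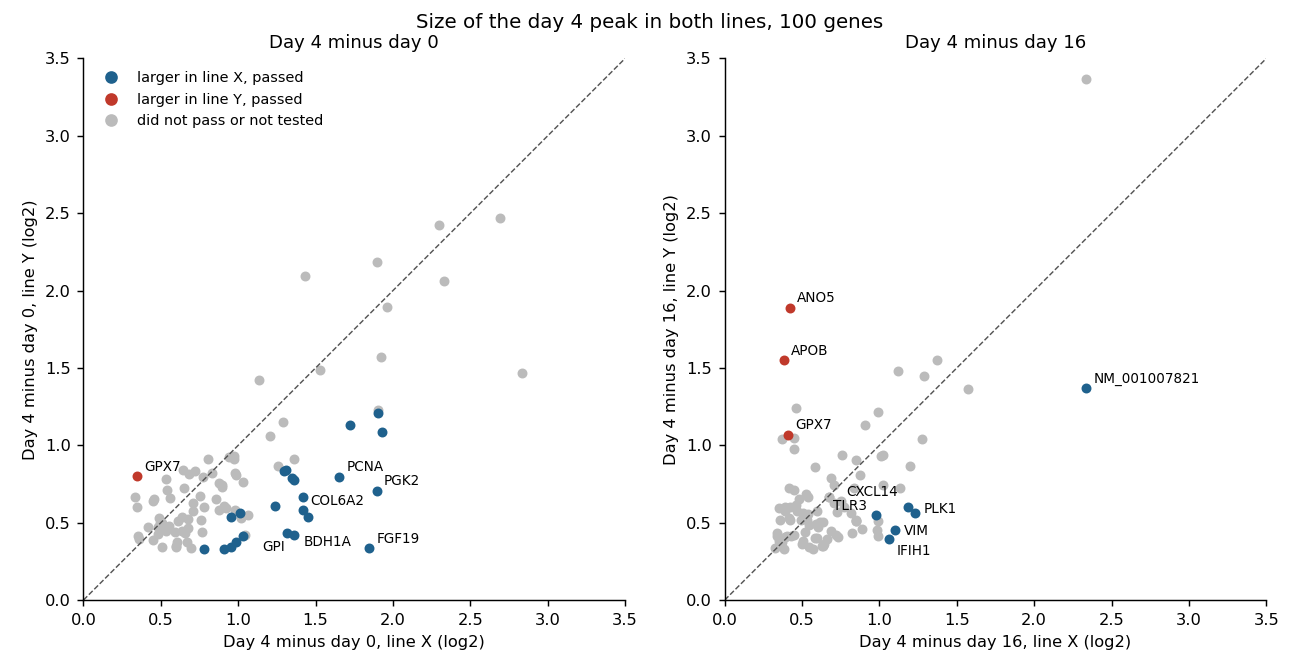
Difference of group means between day 4 and day 0 (left) and between day 4 and day 16 (right) in line X (horizontal axis, log2) and line Y (vertical axis, log2) for the 100 genes; blue and red points passed the test of the line difference, and the dashed line marks equal sizes. The 23 blue points on the left lie below the line, with FGF19 farthest, and ANO5, APOB and GPX7 lie above it on the right.

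The rule compared the probes of a transcript and took the best, so the other probes are given as a description only. Another kept probe was present for 79 genes, and 121 of these 156 probes had a mean that was highest at day 4 in both lines. All other probes did so in 53 genes, and none in 5, which are ITGA1, KIAA1143, LPIN2, MLNR and SERINC3. Probes of one gene lay on the same arrays and measured the same pools. CALB1 had 2 other probes, with scores of 0.79 and 1.25, and CDK1 had 1 with 0.46. DCN had 1 other probe with 0.36 and H1F0 had 1 with 0.05. Scores were above 0 for 3 of 6 other kept probes of APOB (-0.51 to 0.30) and 3 of 4 of ATP2B1 (-1.61 to 0.415). The same held for 1 of 2 of PGK2 (-0.15 to 0.23) and 1 of 3 of KIFC1 (-0.26 to 0.11). The size of the peak thus differed between probes of a gene.

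The variation among pools within a group was not used by the rule. When each value was taken as a deviation from its group mean, the genes of cell division varied together over the 45 pools, with a median Pearson's r of 0.36 between pairs. The genes of muscle, cytoskeleton and matrix had a median of 0.21, and pairs between these groups had -0.08. The 5 genes of protein synthesis, folding and turnover had a median of 0.27, and 0.24 with the genes of cell division. The median was 0.05 over all 100 genes and 0.0035 over all ranked genes. Genes of absorption and metabolism had a median of -0.01 and those of immune defence -0.16, so that these groups did not vary as one. Among the highest pairs were GPI with PGK2 (r = 0.88), SPARC with VIM (0.87) and COL6A2 with VIM (0.85), each within a functional group. Others joined genes of different groups, such as PCNA with PSME3 (0.87), PCNA with PGK2 (0.82) and PLK1 with PSME3 (0.80). All these pairs were picked after their values were seen. Pools share their array and its brightness, and no test was made of these correlations.

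**Figure D5:**
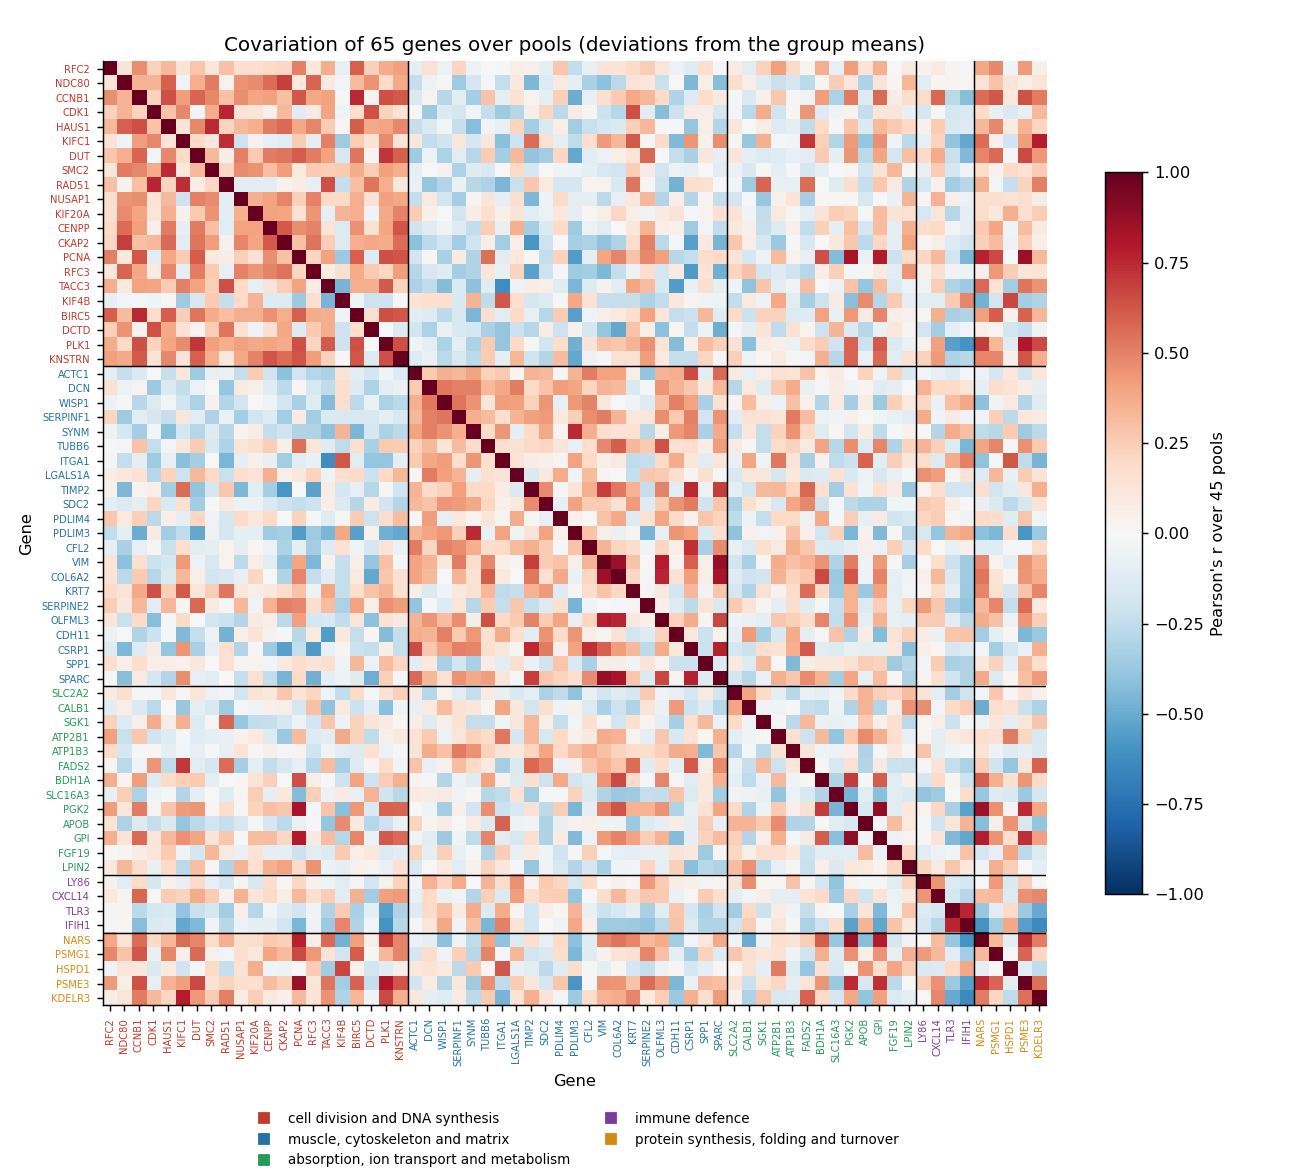
Pearson's r over 45 pools between 65 of the genes with a functional group, computed from the deviations of each pool from its group mean; genes are ordered by group and then by score, and lines separate the groups. Medians are positive in cell division (upper left block, 0.36), muscle, cytoskeleton and matrix (the second block, 0.21) and protein synthesis (the last block, 0.27). Pairs of cell division with muscle, cytoskeleton and matrix have a median of -0.08. Pairs of protein synthesis have 0.24 with cell division and 0.03 with muscle, cytoskeleton and matrix.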

How the data were processed

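The members of the gene set and the gene lists were chosen with earlier results of these data known. Per the labels, total RNA of jejunum was labelled with Cy3 and hybridised to one-colour Agilent arrays. The authors deposited the raw intensity of each spot and of its background for each array, made with Feature Extraction 10.7.3.1, and a table of log2 values, made in R 3.0.2 with limma by normexp correction with an offset of 1, quantile normalisation between arrays and averaging of duplicate probes. Log2 values computed again from the intensities with limma 3.58.1 in R 4.3.3 (with the data.table package, version 1.17.8) differed from the deposited log2 values by at most 5e-09. Control spots of 56 types were removed after normalisation, and outlier flags covered 0.0261% of the other spots. Between 61.8 and 81.9% of spots per array were well above background, and the number of arrays limits the precision.

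A probe was kept where all arrays of 1 or more groups exceeded 1.1 times the log2 value of their highest dark corner spot, which left 25527 of 43603 probes. Group differences were fitted with lmFit and eBayes of limma over all 6 groups and adjusted by Benjamini-Hochberg over all kept probes. A probe was called at an adjusted p under 0.05 and a fold change over 1.3. Figures were drawn with matplotlib 3.10.9 in Python 3.11.15. Symbols and second names came from RefSeq for assembly GRCg7b, without coordinates. The text names the 15 genes of highest score, up to 3 per comparison and direction among those called, those in a fixed list of pathways or cell types, and 3 on either side of the threshold; others are said to have been picked after their values were seen. The fits were also run on simulated data, after the main fit. Results for 1 gene of the set are not reported here by name, and it was left out of the plot of covariation. No sequence is shown, and a planned search of promoters was not run.

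Equal pool numbers in the lines lay at the same slide position. Their deviations from the group means correlated at 0.102 to 0.261 at day 4, all above 0.1, but at -0.262 to 0.196 at day 0 and -0.194 to 0.328 at day 16, so pool number was not used as a block in the results given. Alternatives were signals scaled to the 75th percentile, an offset of 50, other limits for dim probes, the deposited table, array weights, a block of pool numbers, smaller fits and leaving out each pool. All 100 genes kept their highest mean at day 4 in both lines on signals scaled to the 75th percentile.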

Additional observations from a re-analysis of the deposited data

Results flagged for a closer look

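Over the 15 genes with the highest scores, 90 groups were examined, and in 4 of them 1 pool stood far from the rest. Chance gives such a gap in about 1 of 20 groups, so 4 are near the number from chance. SLC2A2 was at 5.22 in pool 17 of line Y at day 16, where the group median was 3.71 and the next pool 3.91. H1F0 was at 9.41 in pool 6 of line Y at day 0 (median 8.86). WISP1 was at 8.60 in pool 22 of line X at day 16 (median 8.12). SGK1 was at 10.96 in pool 7 of line X at day 0 (median 12.64).

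The size of the peak was compared between the lines by a test of the difference itself. These contrasts use the differences that scored the genes, and line and slide cannot be told apart. The calls of GPX7 in the rise, and of NM_001007821 and IFIH1 in the fall, were lost under some settings. The rise to day 4 was larger in line Y for 1 gene and larger in line X for 23, and the fall was larger in line Y for 3 genes and in line X for 6. For the rise, line Y minus line X was -1.51 for FGF19, -1.19 for PGK2, -0.94 for BDH1A and 0.46 for GPX7 on the log2 scale. For the fall, it was 1.47 for ANO5, 1.17 for APOB, 0.66 for GPX7, -0.97 for NM_001007821, -0.67 for IFIH1 and -0.67 for PLK1.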

How the results depend on the processing

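The 7 comparisons were fitted under 8 alternatives. The 40 gene values named by comparison were tested in 7 of these, and 8 of them where the limit for dim probes had to be passed on every array. Of these 288 values 279 stayed on the same side of the threshold, 9 were lost and 0 changed direction. The table as deposited gave the same counts. On processed signals scaled to the 75th percentile, 3 in place of 7 genes were lower in line Y at day 0, and 0 in place of 1 had a larger rise in line Y, as without a limit for dim probes (0). The limit passed on every array was highest for line X pool 12 at day 4, whose highest dark corner spot was at 9.73. On the other arrays this spot was at most 7.73. The limit passed on every array left 36 of the genes and 7687 probes, so that fewer were tested. There, line Y had 8 higher and 3 lower genes on day 0, 1 and 3 on day 4, and 3 and 3 on day 16, while 11 and 1 were higher and lower at day 16 than at day 0 in line X and 9 and 0 in line Y. The rise was larger in line Y for 0 and in line X for 10, and the fall for 0 and 2. The lost calls are given with their genes. Causes were not tested. Signal over background limits the values of SLC2A2 and FADS2, which did not pass the limit for dim probes, and of NM_001007821.

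Leaving out each of 45 pools gave 24 to 35 genes higher and 5 to 9 lower in line Y at day 0, then 5 to 10 and 8 to 11 for day 4, and 13 to 16 and 8 to 11 for day 16. Day 16 was above day 0 for 32 to 41 genes and below for 4 to 8 in line X, and for 17 to 22 and 5 to 8 in line Y. The rise was larger in line Y for 0 to 2 and in line X for 16 to 26 genes, and the fall for 3 to 4 and 3 to 7. Of the 100 genes, 91 to 99 were chosen again without 1 pool, 82 from signals scaled to the 75th percentile, 87 and 80 with a level of 7 or 9, 82 from group medians, and 94 with hemoglobin genes left out after the ranking, an alternative chosen after seeing the data.

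With pool number as a block (correlation 0.123), line Y had 33 higher and 7 lower genes on day 0, 9 and 9 on day 4, and 14 and 10 on day 16. The block changed none of the 40 named calls.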

Other observations

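Some gene lists of the gut were counted for a mean that was highest at day 4 in both lines. The share over all genes with a symbol was 15.6% (574 of 3690). These counts use the differences of the rule, and the lists are small, so nothing is read from them. None of 6 brush border enzymes and none of 14 genes of detoxification and steroid metabolism had it there in both lines. Of 12 genes of cholesterol synthesis and uptake, 3 (25%) did. These 12 genes had a median rise of 2.25 in line X and 2.43 in line Y, against 0.89 and 0.63 for the peaking genes. Their median fall was 0.06 and -0.14. At day 16, 11 of them in line X and 12 in line Y were higher than at day 0, against 28.1% and 18.4% of all kept probes. Among 22 chaperones and folding enzymes, 8 (36.4%) had their highest mean at day 4 in both lines. The mitochondrial chaperonin HSPD1 was 1 of the peaking genes, with a rise of 0.61 in line X and 0.38 in line Y.

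Genes of gut peptide signalling were among the peaking genes that were put in none of the functional groups, and they were picked after their values were seen. MLNR, the receptor of motilin, had day 4 pools of 8.25 to 8.72 in line X and 8.34 to 8.89 in line Y, with a day 4 mean that was 0.42 and 0.47 above day 0 and pools that overlapped those of day 0 in both lines. The 1 other kept probe of MLNR had a score of -0.16, so its mean was not highest at day 4 in both lines. NMB, neuromedin B, was 0.45 higher at day 4 than at day 0 in line X and 0.64 in line Y, and its pools of these days did not overlap in either line. On day 0, NMB differed by -0.40 in line Y against line X (limma adjusted p = 0.000732).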
